A study of Mus musculus with 24 samples.

Results

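DNA replication genes encode the machinery that copies the genome in S phase. The set described here holds 46 of the 24421 genes in the count tables, chosen by gene symbol from a fixed list of 8 roles, and all 46 were found in every table and passed the filter on low counts in every fit. They were followed in common lymphoid progenitors (CLPs, sorted as Lin-IL-7R+) and in B cell progenitors (sorted as B220+IgM-IL-7R+) of mouse bone marrow in 4 genotypes, which the labels give as PLCgamma1+/+PLCgamma2+/+, PLCgamma1-/-PLCgamma2+/+, PLCgamma1+/+PLCgamma2-/- and PLCgamma1-/-PLCgamma2-/-. They are called WT, Plcg1-/-, Plcg2-/- and Plcg1-/-Plcg2-/- here. Each of the 8 groups had 3 libraries, and both populations were taken from the same 12 mice. All groups carried the Mx-Cre and Rosa-YFP alleles, and the donors had been given poly(I-C). Plcg1 was removed by Cre from a floxed allele under the interferon-inducible Mx promoter, so the deletion was not limited to B lineage cells, whereas Plcg2 was a germline null. The mice sampled were lethally irradiated CD45.1+ recipients of bone marrow from such donors, and the number of donors per genotype is not given in the sources used here. The p-values therefore measure the spread between recipients, which may share a donor.

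PLCγ1 and PLCγ2 are phospholipases that turn receptor signals into calcium and diacylglycerol signals, and the study asked what their combined loss does to early B cell development under IL-7. Copying of DNA starts when the origin recognition complex, Cdc6 and Cdt1 load the Mcm2-7 ring onto origins in G1 phase, and Cdc45, GINS and Mcm10 then turn the ring into a moving helicase. Polymerases, the PCNA clamp with its loader RFC, flap endonuclease and ligase complete the strands from deoxynucleotides that ribonucleotide reductase and thymidylate synthase supply. Transcription of most of these genes rises as cells enter S phase, in large part through E2F factors, and progenitors that divide in response to IL-7 are known to express them strongly. In bulk RNA, a smaller share of cells in S phase and less RNA per cell cannot be told apart.

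All 24 libraries entered the fits. Reads on genes ranged from 4232345 to 33219995 in CLP libraries and from 1479582 to 25057223 in B cell progenitor libraries. The share of reads that fell on no gene was 17.9% to 45.2% in CLP libraries and 59.9% to 87.3% in B cell progenitor libraries, a gap that cannot be told apart from the population. Reads counted as ambiguous between genes were 1.06% to 1.44% in CLP libraries and 0.110% to 0.420% in B cell progenitor libraries. This gap cannot be told apart from the population either. Plcg2 had means of 233 CPM in WT CLPs and 234 in WT B cell progenitors and 89.1 to 122 in the groups that lack it, lower in every library, whereas the counts of Plcg1, summed over the whole gene, did not separate the Plcg1 genotypes. All 12 libraries of the genotypes that lack Plcg1 had 1294 to 2314 CPM of Xist, the X inactivation transcript. The others had 743 CPM or less. Comparisons of genotypes that lack Plcg1 with WT or Plcg2-/- therefore also compare libraries that differ in a sex-linked transcript. All 9 genes of a B cell progenitor marker list (among them Cd79a, Vpreb1, Igll1, Pax5 and Ebf1) and all 9 of a myeloid list (Lyz2, Mpo, Elane, S100a8, S100a9, Csf1r, Cd14, C1qa and Itgam) were detected in every library of both populations. The lowest level of Mpo, a myeloid gene, in any library was 638 CPM and that of Pax5, a B cell transcription factor, was 37.7 CPM, so CLP libraries held B cell progenitor transcripts and libraries of both populations held myeloid ones. The summed level of the B cell progenitor list ranged from 827 to 6229 CPM in CLP libraries and from 1824 to 6624 CPM in B cell progenitor libraries. These ranges overlap, so this list did not separate the sorted populations. CPM is the usual unit of read counts relative to library size, here with TMM scaling over all 24 libraries. WT CLP replicate 1 stood apart with 735 CPM of Flt3, a receptor of lymphoid progenitors, where other CLP libraries had 451 or less, and with the lowest B cell progenitor list.

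In total, the 46 genes were highest in WT mice. Their summed level in WT CLPs was 7910, 10386 and 8920 CPM in replicates 1, 2 and 3, with a mean of 9072 ± 1245 (SD, n = 3). The 9 CLP libraries of the other genotypes lay between 6993 and 7632 CPM, below all WT libraries. In WT B cell progenitors the sum was 9522, 10175 and 9473 CPM (9723 ± 392, SD, n = 3). In B cell progenitors of Plcg1-/- mice it was 7525 ± 714, of Plcg2-/- mice 8413 ± 1313 and of Plcg1-/-Plcg2-/- mice 7290 ± 1118 (SD, n = 3 each), and the highest of these 9 libraries reached 9323 CPM. Relative to WT, the mean sum of Plcg1-/-Plcg2-/- libraries was 81.7% in CLPs and 75.0% in B cell progenitors. The sums are given as a description with no test.

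**Figure D1:**
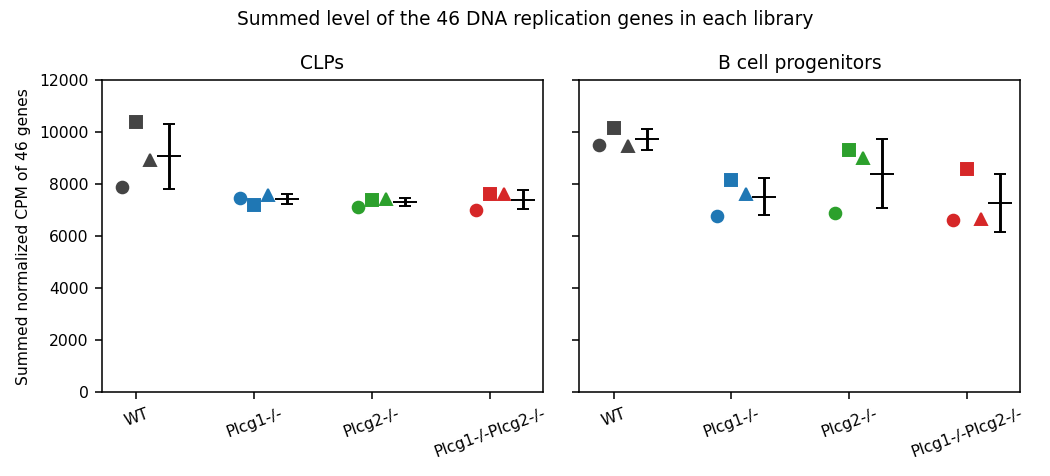
Summed normalized CPM of the 46 DNA replication genes (y axis, from 0) in each library of the 4 genotypes (x axis), with CLPs on the left and B cell progenitors on the right. Circles, squares and triangles are replicates 1, 2 and 3, and the black marks show the mean and SD of 3 libraries; in both panels the WT libraries lie above those of Plcg1-/- and Plcg1-/-Plcg2-/- mice.

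The level of a gene per length of its exons (CPM per kb, exons of the mm10 annotation) showed which members were most abundant in WT cells. Pcna, the sliding clamp, led with 343 ± 73.7 CPM per kb (SD, n = 3) in CLPs, followed by Rrm2, the cell cycle-controlled subunit of ribonucleotide reductase, at 190 ± 76.4 (SD, n = 3). Orc1, a subunit of the origin recognition complex, was lowest at 7.39 ± 0.818 CPM per kb (SD, n = 3). Pcna, Rrm2 and Orc1 held the same places in WT B cell progenitors, with 393, 248 and 8.06 CPM per kb. The 46 genes lie on 14 chromosomes, and Pola1 alone is on X.

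In each population 5 pairs of genotypes were compared: each of the other genotypes with WT, and Plcg1-/-Plcg2-/- with each single-deficient genotype. Plcg1-/- and Plcg2-/- were not compared with each other. None of the 46 genes was called changed in these comparisons, where a call rested on the quasi-likelihood test of edgeR and asked for a Benjamini-Hochberg p no higher than 0.05 together with a log2 fold change of 0.5 or more in either direction. For Plcg1-/-Plcg2-/- against WT this call was made in CLPs for 0.0921% of 15209 tested genes, and in B cell progenitors for 0.893% of 15001. Without adjustment, at a p of at most 0.05, 18 of the 46 were lower in Plcg1-/-Plcg2-/- CLPs and 0 higher, where 3.84% of all tested genes were lower and 3.68% higher. The same count was 26 lower and 0 higher in B cell progenitors, where 6.56% of all tested genes were lower and 5.71% higher. The median log2 fold change of the 46 genes was -0.29 in CLPs beside -0.03 over all tested genes, and -0.36 in B cell progenitors beside -0.02 over all. DESeq2 called 0 members in CLPs and 1, Pole, in B cell progenitors. The shares of all tested genes that DESeq2 called are not given here. Without WT CLP replicate 2, the library with the highest summed level in CLPs, the CLP median was -0.18. The count of 18 in CLPs was 4 without WT replicate 2 and 30 without WT replicate 1, and the count of 26 in B cell progenitors was 8 without Plcg1-/-Plcg2-/- replicate 3. No share of all tested genes is given for these fits.

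The difference was spread over the set. In CLPs 42 of 46 genes had a log2 fold change below 0, where 54.4% of all tested genes did, and the exceptions were Prim2, Tyms, Tk1 and Chaf1b. Of the 46 genes in B cell progenitors, 43 were below 0, where 51.8% of all did, and the exceptions were Prim2, Tyms and Tk1. Of these exceptions, Prim2 and Tk1 in both populations and Chaf1b in CLPs turned below 0 in some fits with a library left out. All 3 Plcg1-/-Plcg2-/- libraries lay below all 3 WT libraries for 24 members in CLPs (7.32% of all tested genes) and for 33 members in B cell progenitors (10.2% of all). WT had the highest mean of the 4 genotypes for 41 of 46 members in each population, where 27.5% of all tested genes did in CLPs and 28.8% in B cell progenitors.

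**Figure D2:**
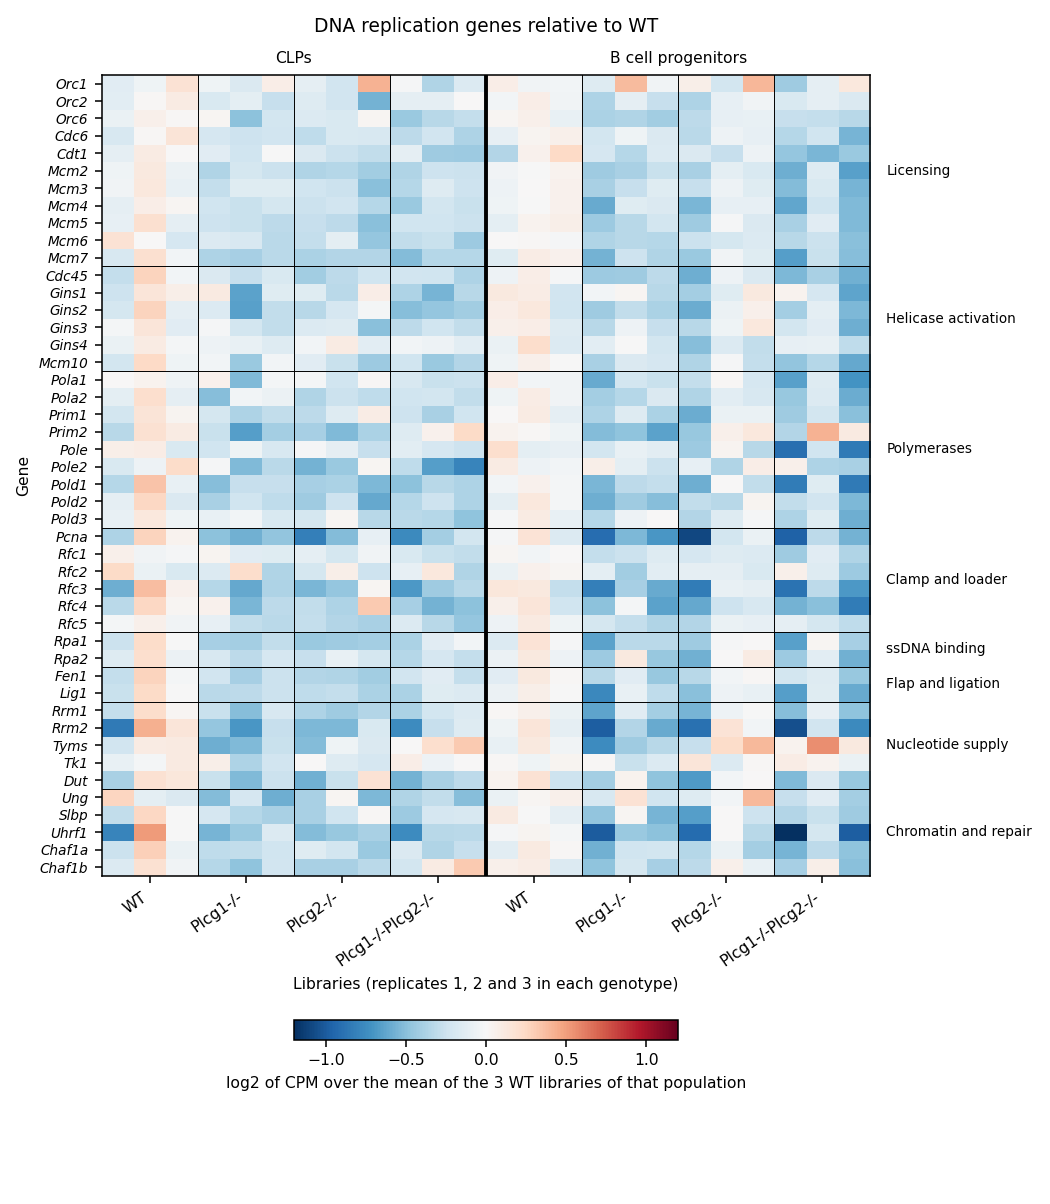
Each cell is the log2 ratio of a gene's CPM in a library to the mean of the 3 WT libraries of the same population, with the 46 genes as rows ordered by role and the 24 libraries as columns (blue is lower, red is higher). Most rows turn blue outside WT in both populations, Tyms is at or above the WT mean in the Plcg1-/-Plcg2-/- libraries, and WT CLP replicate 1 is lower than replicate 2 for Rrm2 and Uhrf1.

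The 3 comparisons with WT share the WT libraries, so their values are given side by side and not as separate evidence. In CLPs the median log2 fold change of the 46 genes against WT was -0.26 for Plcg1-/- and -0.27 for Plcg2-/-, with 14 and 16 members lower at an unadjusted p of at most 0.05, where 1.32% and 2.39% of all tested genes were. Without WT CLP replicate 2 these medians were -0.17 and -0.18. In B cell progenitors the median was -0.29 for Plcg1-/- with 13 members lower (2.65% of all), and -0.16 for Plcg2-/- with 0 lower and 0 higher (1.02% and 1.82% of all). The median for Plcg2-/- was -0.11 without Plcg2-/- replicate 1. The all-gene median with 1 library left out ran from -0.030 to 0.0042 for Plcg1-/- CLPs and from -0.013 to 0.023 for Plcg2-/- CLPs. In B cell progenitors it ran from 0.018 to 0.11 for Plcg1-/- and from -0.0056 to 0.067 for Plcg2-/-. No member was called by edgeR in these 4 comparisons, where 0.00658% and 0% of all tested genes were called in CLPs and 0.06% and 0.0467% in B cell progenitors. All 3 libraries lay below WT for 14 and 18 members in CLPs (2.84% and 4.58% of all) and for 31 and 8 in B cell progenitors (11.2% and 4.73% of all). Between Plcg1-/-Plcg2-/- and the single-deficient genotypes, which do not involve WT libraries, the medians were -0.05 against Plcg1-/- and -0.04 against Plcg2-/- in CLPs, and -0.11 and -0.20 in B cell progenitors. Here the all-gene medians with 1 library left out ran from -0.051 to -0.017 and from -0.055 to -0.0070 in CLPs. In B cell progenitors they ran from -0.10 to -0.010 and from -0.099 to -0.012. No member was called there either (of all tested genes, 0.0263% and 0.0526% were called in CLPs, and 0.213% and 0.153% in B cell progenitors), and few passed an unadjusted p of 0.05. In CLPs 1 and 0 members were lower (1.97% and 4.02% of all) and 3 and 3 higher (2.32% and 3.52% of all). The B cell progenitors had 1 and 2 lower (12.5% and 7.47% of all) and 2 and 0 higher (4.13% and 3.49% of all). With the replicate number as a block, 0 members were called in both CLP comparisons and against Plcg2-/- in B cell progenitors, where 0.112%, 0.171% and 0.307% of all tested genes were called.

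The summed level of the myeloid list also differed between the groups. It ranged from 2314 to 3950 CPM in WT CLPs, from 2809 to 8682 in Plcg1-/-, from 2441 to 7837 in Plcg2-/- and from 3459 to 7870 in Plcg1-/-Plcg2-/- CLPs. The B cell progenitor libraries ranged from 1408 to 4524 CPM in WT, from 2253 to 7640 in Plcg1-/-, from 1414 to 7561 in Plcg2-/- and from 2648 to 6782 in Plcg1-/-Plcg2-/- libraries. In each knockout group the library with replicate number 1 was highest for this list. The part of the myeloid genes in the result was not tested. Leaving out all number 1 libraries, an alternative added after the data were seen, cannot settle it, since the libraries left still differed on this list. They had 2314 and 3950 CPM in WT and 3459 and 5189 CPM in Plcg1-/-Plcg2-/- CLPs. In B cell progenitors they had 2118 and 4524 CPM in WT and 2648 and 5362 CPM in Plcg1-/-Plcg2-/- mice. With all number 1 libraries left out, the median log2 fold change of the 46 genes in Plcg1-/-Plcg2-/- against WT was -0.31 in CLPs and -0.36 in B cell progenitors, and 19 and 12 members were lower at an unadjusted p of at most 0.05. This also left out WT CLP replicate 1, which had the lowest sum of the 46 genes in WT CLPs. Without that library alone the CLP median was -0.37. No share of all tested genes is given beside the counts of 19 and 12.

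Among the 11 licensing genes all were below WT in Plcg1-/-Plcg2-/- CLPs and B cell progenitors, with medians of -0.32 and -0.37 on the log2 scale, and 8 and 9 of them had an unadjusted p of at most 0.05. Mcm2, a subunit of the replicative helicase ring, had 412, 463 and 406 CPM in the 3 WT CLP libraries and 333, 360 and 357 CPM in Plcg1-/-Plcg2-/- CLPs. All 9 CLP libraries of the knockout genotypes lay between 319 and 370 CPM, so that they did not overlap with WT. Its log2 fold change in Plcg1-/-Plcg2-/- CLPs was -0.30 (SE 0.10, adjusted p = 0.488 from edgeR). Mcm2 in B cell progenitors had 390, 401 and 413 CPM in WT and 268, 360 and 256 CPM in Plcg1-/-Plcg2-/- libraries, a log2 fold change of -0.45 (SE 0.14, adjusted p = 0.215 from edgeR). Mcm2, Mcm3, Mcm4, Mcm5, Mcm7, Pold2 and Rfc5 were higher in all 3 WT CLP libraries than in all 9 others (0.526% of all tested genes). Mcm2, Mcm3, Mcm4, Mcm6, Pola2, Rfc1 and Rfc5 were so in B cell progenitors (1.15% of all). Mcm7, which had the smallest adjusted p of the members in CLPs, went from 402, 523 and 449 CPM in WT to 320, 360 and 360 CPM in Plcg1-/-Plcg2-/- CLPs, a log2 fold change of -0.41 (SE 0.12, adjusted p = 0.374 from edgeR).

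Cdc6, which loads the ring together with Cdt1, had 80.6, 92.6 and 102 CPM in WT CLPs and 73.7, 78.2 and 71.2 CPM in Plcg1-/-Plcg2-/- CLPs. The CLP groups did not overlap, and the log2 fold changes of Cdc6 were -0.32 in CLPs and -0.37 in B cell progenitors (SE 0.11 and 0.13). Cdt1, its partner, in B cell progenitors had 120, 159 and 180 CPM in WT and 111, 104 and 112 CPM in Plcg1-/-Plcg2-/- libraries, with no overlap between the groups. Its log2 fold change there was -0.49 (SE 0.14, adjusted p = 0.181 from edgeR). Mcm5 had 459, 562 and 457 CPM in WT CLPs and 419, 417 and 413 CPM in Plcg1-/-Plcg2-/- CLPs, with log2 fold changes of -0.25 (SE 0.12) there and -0.35 (SE 0.15) in B cell progenitors. The value of Mcm5 in CLPs was -0.13 without WT replicate 2, its library of 562 CPM. Orc1 and Orc2, subunits of the origin recognition complex, were the licensing genes with the smallest differences, at -0.18 and -0.08 in CLPs and -0.11 and -0.15 in B cell progenitors on the log2 scale. Without WT replicate 3 the CLP values of Orc1 and Orc2 were -0.084 and -0.026, without Plcg1-/-Plcg2-/- replicate 1 that of Orc1 was -0.28, and without WT replicate 1 that of Orc2 was -0.15. Orc1 had 25.7, 23.5 and 23.7 CPM in WT and 18.03, 22.48 and 26.49 CPM in Plcg1-/-Plcg2-/- B cell progenitors, which overlap.

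Promoter sequence was examined because E2F factors are known to drive many of these genes. RefSeq promoter windows of 300 bases (250 before and 50 after a start site, build GRCm38.p6, which is mm10) were matched for 39 of the 46 genes. Mcm4, Prim2, Gins1, Gins2, Pole, Gins4 and Rfc2 had no entry. The E2F words TTTCGCGC and TTTGGCGC were searched on both strands. The word TTTCGCGC was found at 7 of the 39 genes (Orc1, Mcm5, Mcm6, Mcm7, Rfc3, Lig1 and Uhrf1; 17.9%), where 0.374% of 27025 genes and 0.323% of all windows held it. TTTGGCGC was found at 6 (Cdt1, Mcm3, Mcm5, Mcm6, Pola1 and Pole2; 15.4%), where 0.585% of genes and 0.514% of windows held it. At least 1 of these words was present at 11 of the 39 genes (28.2%), beside 0.929% of all genes. The CCAAT box, searched as CCAAT on both strands, was found at 24 of 39 (61.5%), beside 41.1% of all genes. The windows below, 100 bases each, show the words in capitals upstream of 3 members, on the strand of the gene and from 5′ to 3′.
Mcm6 (chr1:128359736-128359835, minus strand): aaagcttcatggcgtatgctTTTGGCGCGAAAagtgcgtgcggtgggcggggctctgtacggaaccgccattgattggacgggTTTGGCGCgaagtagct
Mcm5 (chr8:75109336-75109435, plus strand): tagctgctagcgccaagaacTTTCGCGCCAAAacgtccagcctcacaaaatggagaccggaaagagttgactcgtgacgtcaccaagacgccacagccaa
Rfc3 (chr5:151651209-151651308, minus strand): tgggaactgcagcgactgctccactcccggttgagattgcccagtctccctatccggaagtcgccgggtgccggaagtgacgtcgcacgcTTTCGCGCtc
Both words overlap on opposite strands in the first capitals of Mcm6 and in those of Mcm5. These are matches of letters, and no binding was measured. The median log2 fold change in Plcg1-/-Plcg2-/- against WT was -0.33 for the 11 genes with a word and -0.29 for the 28 matched genes without in CLPs, and -0.45 and -0.36 in B cell progenitors. These medians are a description with no test.

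**Figure D3:**
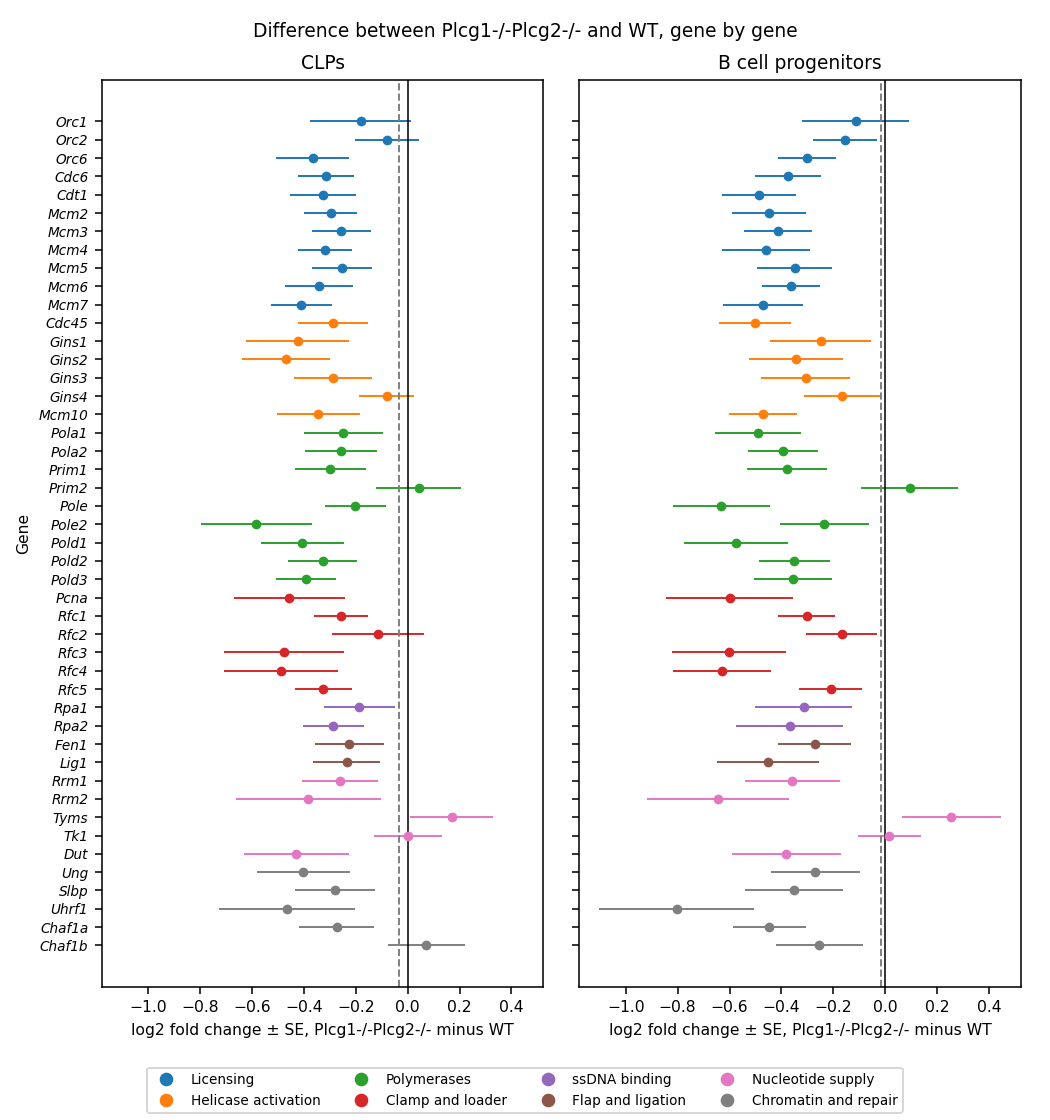
Log2 fold change with its SE (x axis) of each of the 46 genes (y axis, coloured by role) in Plcg1-/-Plcg2-/- against WT, for CLPs (left) and B cell progenitors (right). The solid line marks 0 and the dashed line the median of all tested genes; 42 points lie left of 0 in CLPs and 43 in B cell progenitors, and none passed the adjusted threshold.

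The 6 genes of helicase activation had medians of -0.32 in CLPs and -0.33 in B cell progenitors in Plcg1-/-Plcg2-/- against WT. Cdc45, the factor that joins Mcm2-7 and GINS, had 105, 116 and 109 CPM in WT B cell progenitors and 75.7, 84.0 and 73.8 CPM in Plcg1-/-Plcg2-/- libraries. The groups did not overlap, and the log2 fold change was -0.50 (SE 0.14), with an adjusted p of 0.150 from edgeR that was the smallest of all members in that comparison. In CLPs Cdc45 had 88.9, 130 and 106 CPM in WT and 91.9, 91.8 and 83.3 CPM in Plcg1-/-Plcg2-/- libraries, which overlap. Gins2, a subunit of the GINS complex, went from 47.0, 65.3 and 50.5 CPM in WT CLPs to 38.2, 39.3 and 40.5 CPM in Plcg1-/-Plcg2-/- CLPs, a log2 fold change of -0.47 (SE 0.17, adjusted p = 0.515 from edgeR), which was -0.30 without WT replicate 2. Gins4 had the smallest difference of the group in both populations, with log2 fold changes of -0.08 and -0.16.

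Of the 9 polymerase genes, 8 were below WT in each population of Plcg1-/-Plcg2-/- mice and Prim2, the regulatory subunit of primase, was not. In CLPs Prim2 turned to -0.11 without WT replicate 1 and to -0.060 without Plcg1-/-Plcg2-/- replicate 3. In B cell progenitors it turned to -0.096 without Plcg1-/-Plcg2-/- replicate 2. Pole, the catalytic subunit of the leading-strand polymerase, had 185, 148 and 150 CPM in WT B cell progenitors and 86.2, 136 and 89.3 CPM in Plcg1-/-Plcg2-/- libraries. The log2 fold change was -0.63 (SE 0.19, adjusted p = 0.187 from edgeR). Pole in Plcg1-/- and Plcg2-/- B cell progenitors lay between 119 and 165 CPM, so that all 3 Plcg1-/-Plcg2-/- libraries were below the 3 Plcg1-/- libraries (139, 152 and 148 CPM). Pold1, the catalytic subunit of the lagging-strand polymerase, had 368, 392 and 371 CPM in WT and 210, 341 and 209 CPM in Plcg1-/-Plcg2-/- B cell progenitors, a log2 fold change of -0.58 (SE 0.20, adjusted p = 0.263 from edgeR). Pole2, an accessory subunit of Pole, had the largest difference of all members in CLPs, from 30.5, 33.1 and 40.4 CPM in WT to 27.99, 21.87 and 20.01 CPM in Plcg1-/-Plcg2-/- libraries (log2 fold change -0.58, SE 0.21, adjusted p = 0.536 from edgeR). Pola1, which starts DNA synthesis with primase, had 219, 202 and 201 CPM in WT and 132, 186 and 126 CPM in Plcg1-/-Plcg2-/- B cell progenitors.

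The clamp and its loader had the lowest median of the larger groups, -0.39 in CLPs and -0.45 in B cell progenitors, over 6 genes that were all below WT. Pcna had 403, 625 and 535 CPM in WT CLPs and 307, 392 and 448 CPM in Plcg1-/-Plcg2-/- CLPs, which overlap. Pcna in B cell progenitors had 591, 667 and 531 CPM in WT and 304, 479 and 402 CPM in Plcg1-/-Plcg2-/- libraries, which do not overlap, with a log2 fold change of -0.60 (SE 0.25, adjusted p = 0.343 from edgeR). Pcna was also the member with the largest difference in the single-deficient B cell progenitors, at -0.69 in Plcg1-/- (SE 0.25) and -0.38 in Plcg2-/- (SE 0.25), and in single-deficient CLPs, at -0.51 and -0.45 (SE 0.21 each). Rfc4, a small subunit of the clamp loader, had 107, 114 and 87.0 CPM in WT and 69.5, 72.8 and 57.5 CPM in Plcg1-/-Plcg2-/- B cell progenitors (log2 fold change -0.63, SE 0.19, adjusted p = 0.192 from edgeR). In CLPs Rfc4 had 49.5, 73.8 and 63.0 CPM in WT and 47.2, 42.0 and 44.1 CPM in Plcg1-/-Plcg2-/- libraries, again without overlap. Rfc3, another small subunit, had 96.8, 95.4 and 72.3 CPM in WT and 47.9, 71.0 and 54.8 CPM in Plcg1-/-Plcg2-/- B cell progenitors.

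Rpa2, which coats single-stranded DNA, had 108, 139 and 115 CPM in WT and 95.0, 105 and 99.0 CPM in Plcg1-/-Plcg2-/- CLPs, which do not overlap, with log2 fold changes of -0.29 in CLPs and -0.37 in B cell progenitors. Fen1, the flap endonuclease, had log2 fold changes of -0.22 and -0.27, and Lig1, the ligase that seals Okazaki fragments, had -0.24 and -0.45, in CLPs and B cell progenitors in turn. In CLPs without WT replicate 2, Rpa2 was at -0.15, Fen1 at -0.051 and Lig1 at -0.082. Without WT replicate 1, Fen1 and Lig1 were both at -0.36. Fen1 had 149, 177 and 165 CPM in WT and 141, 147 and 120 CPM in Plcg1-/-Plcg2-/- B cell progenitors. Lig1 had 298, 328 and 310 CPM in WT and 198, 282 and 206 CPM in Plcg1-/-Plcg2-/- B cell progenitors. For both genes these groups did not overlap.

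The nucleotide supply genes lay on both sides of WT, with 3 of 5 below it in each population. Rrm2 had 526, 600 and 505 CPM in WT B cell progenitors and 263, 463 and 321 CPM in Plcg1-/-Plcg2-/- libraries, a log2 fold change of -0.64 (SE 0.27, adjusted p = 0.367 from edgeR). In CLPs its WT libraries ran from 231 to 558 CPM and spanned those of Plcg1-/-Plcg2-/- (247, 343 and 373 CPM). Tk1, the thymidine salvage kinase, had 90.9, 94.8 and 104 CPM in WT and 102, 92.7 and 96.6 CPM in Plcg1-/-Plcg2-/- CLPs, with a log2 fold change of 0.00036 (SE 0.13), whose sign turned under 3 alternatives. The log2 fold change of Tk1 in B cell progenitors was 0.02 (SE 0.12), and it turned under counts thinned to the smallest library and without the number 1 libraries.

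Tyms, which makes thymidylate, lay above 0 in Plcg1-/-Plcg2-/- against WT, unlike most of the set, though its libraries overlapped with WT. In Plcg1-/- mice it followed the set, with all libraries below WT in both populations. It had 96.1, 120 and 121 CPM in WT CLPs, 75.1, 77.8 and 93.5 in Plcg1-/-, 78.2, 108 and 100 in Plcg2-/- and 113, 129 and 140 in Plcg1-/-Plcg2-/- CLPs. In B cell progenitors it had 106, 122 and 109 CPM in WT, 66.5, 83.7 and 89.3 in Plcg1-/-, 92.9, 131 and 147 in Plcg2-/- and 116, 165 and 122 in Plcg1-/-Plcg2-/- libraries. All Plcg1-/-Plcg2-/- libraries were above all Plcg1-/- libraries of their population, and both groups were high in Xist. The log2 fold change of Plcg1-/-Plcg2-/- against Plcg1-/- was 0.62 in CLPs (SE 0.16, adjusted p = 0.465 from edgeR) and 0.73 in B cell progenitors (SE 0.19, adjusted p = 0.164 from edgeR). Prim2 had 49.4 to 65.2 CPM in Plcg1-/- and 70.2 to 91.7 CPM in Plcg1-/-Plcg2-/- CLPs, and 60.4 to 67.3 against 74.1 to 126 CPM in B cell progenitors. Its log2 fold changes were 0.48 (SE 0.16, adjusted p = 0.862 from edgeR) and 0.63 (SE 0.19, adjusted p = 0.167 from edgeR). For Plcg1-/-Plcg2-/- against Plcg1-/- B cell progenitors DESeq2 called 2 members, which are not named here, and its share of all tested genes is not given.

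**Figure D4:**
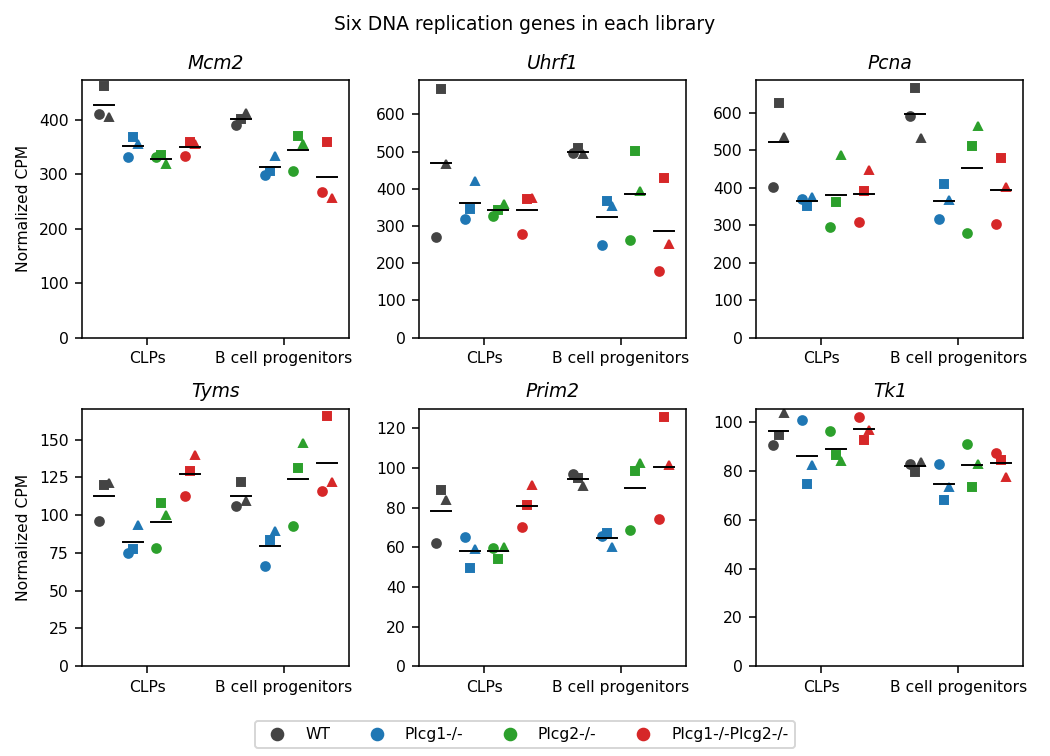
Normalized CPM (y axes, from 0) of Mcm2, Uhrf1, Pcna, Tyms, Prim2 and Tk1 in each library, by population and coloured by genotype; circles, squares and triangles are replicates 1, 2 and 3 and the black lines are means of 3 libraries. Mcm2 is highest in the WT libraries of both populations, Tyms and Prim2 are higher in Plcg1-/-Plcg2-/- than in Plcg1-/- libraries, and the libraries of Tk1 overlap between Plcg1-/-Plcg2-/- and WT.

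Uhrf1, which brings DNA methylation to newly copied strands, had the largest difference of all members in B cell progenitors. It had 495, 510 and 492 CPM in WT, 250, 367 and 354 in Plcg1-/-, 263, 502 and 395 in Plcg2-/- and 178, 430 and 252 CPM in Plcg1-/-Plcg2-/- libraries. All Plcg1-/-Plcg2-/- libraries were below all WT libraries, and the log2 fold change was -0.80 (SE 0.30, adjusted p = 0.298 from edgeR), or -1.21 without Plcg1-/-Plcg2-/- replicate 2. In WT CLPs Uhrf1 ran from 272 CPM in replicate 1 to 667 in replicate 2. Chaf1b, a subunit of the histone chaperone CAF-1, had 69.5, 88.2 and 75.4 CPM in WT and 66.7, 83.0 and 96.4 CPM in Plcg1-/-Plcg2-/- CLPs, beside 55.5 to 66.1 in Plcg1-/- and 59.2 to 62.1 in Plcg2-/- CLPs. Ung, the uracil glycosylase, had 54.0, 41.7 and 40.1 CPM in WT and 35.2, 36.8 and 31.7 CPM in Plcg1-/-Plcg2-/- CLPs.

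The sorted populations, which overlap in the B cell progenitor list, were compared over the 24 libraries of the 12 mice, without the mouse as a block. The SE and p-values therefore treat both libraries of a mouse as independent, and among single genes a blocked value is given for Pola1 alone. The median log2 difference of the 46 genes between B cell progenitors and CLPs was 0.07 in WT (-0.01 over all 17212 tested genes), -0.01 in Plcg1-/- (0.13 over all), 0.15 in Plcg2-/- (0.08 over all) and 0.02 in Plcg1-/-Plcg2-/- mice (-0.03 over all). With 1 library left out at a time, the members' median ran from -0.0027 to 0.13 in WT, from -0.16 to -0.094 in Plcg1-/-, from -0.0014 to 0.081 in Plcg2-/- and from -0.10 to 0.072 in Plcg1-/-Plcg2-/- mice, and in WT it was -0.020 without the number 1 libraries. Each such fit also repeated the low-count filter and the scaling, so these ranges do not show the effect of a library alone. The ranges of Plcg1-/- and Plcg2-/- do not hold the values from all libraries. No direction is therefore read from these medians. The all-gene median for Plcg1-/- was 0.22 without a filter on low counts, where the members' median was -0.16, so single values are to be read against the all-gene median. The call was made for 1 member in each genotype, where 3.5%, 3.78%, 3.21% and 3.24% of all tested genes were called. Pola1 was called in WT, with 219, 202 and 201 CPM in B cell progenitors and 141, 145 and 136 CPM in CLPs of the same mice (log2 difference 0.56, SE 0.16, adjusted p = 0.0482 from edgeR), and was not called with the mouse as a block (adjusted p = 0.0981 from edgeR). Pold2, an accessory subunit of the lagging-strand polymerase, was called lower in B cell progenitors of Plcg1-/- mice, with 57.2, 63.9 and 60.4 against 81.6, 90.2 and 86.5 CPM (log2 difference -0.51, SE 0.13, adjusted p = 0.0347 from edgeR). These single calls were not stable. With 1 library left out at a time, and the filter and scaling repeated, 0 to 2 members were called in WT and in Plcg1-/-Plcg2-/- mice. The count was 0 to 1 in Plcg1-/- mice and 0 each time in Plcg2-/- mice. Shares of all tested genes in these fits are not given.

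Orc6, the smallest subunit of the origin recognition complex, was called higher in B cell progenitors of Plcg1-/-Plcg2-/- mice, with 75.7, 75.1 and 72.7 against 47.6, 51.5 and 53.2 CPM in CLPs (log2 difference 0.55, SE 0.12, adjusted p = 0.0062 from edgeR). Over all mice its 12 B cell progenitor libraries ranged from 68.6 to 95.5 CPM and its 12 CLP libraries from 46.3 to 67.7 CPM, the single member whose populations did not overlap. The share of all tested genes without such overlap was not counted. Orc2 was called higher in Plcg2-/- mice, with 75.0, 90.1 and 94.1 CPM in B cell progenitors and 65.5, 62.3 and 49.1 CPM in CLPs (log2 difference 0.54, SE 0.12, adjusted p = 0.0106 from edgeR) and was higher in B cell progenitors of all 12 mice, by a median of 0.41 on the log2 scale.

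The mean of the 4 population differences, a comparison added after the data were seen, called Rfc4 alone, with a log2 difference of 0.60 (SE 0.10, adjusted p = 0.000226 from edgeR), where 14.4% of all tested genes were called. By the adjusted p without a fold threshold 10 members were higher in B cell progenitors (Orc2, Orc6, Mcm4, Gins3, Pola1, Prim1, Prim2, Rfc4, Rrm1 and Dut) and 5 were lower (Gins4, Pola2, Pold2, Rfc2 and Tk1), where 16.4% and 13.7% of all tested genes were. The others did not pass. Orc2, Orc6, Prim1, Prim2, Rfc4, Rrm1 and Dut were higher in B cell progenitors in all 12 mice, and Pola2, Rfc2 and Tk1 were lower in all 12. The share of all tested genes with 1 direction in all 12 mice was not counted, so these lists are a description of the members only. Dut and Rrm1, which supply deoxynucleotides, had median log2 ratios of 0.34 and 0.25 over the mice. Rrm1 in WT mice had 642, 665 and 600 CPM in B cell progenitors and 403, 568 and 500 CPM in CLPs, which do not overlap. Dut in WT mice had 348, 381 and 285 against 196, 292 and 282 CPM, which overlap. Rfc4 had 42.0 to 77.1 CPM over CLP libraries and 57.5 to 114 CPM over B cell progenitor libraries, which overlap between mice. Mcm2, Mcm3, Mcm5, Mcm6 and Mcm7 had log2 differences between -0.14 and 0.05 and Mcm4 had 0.28 (SE 0.07), so that 1 subunit of the ring differed from CLPs by the adjusted p and the others did not pass.

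**Figure D5:**
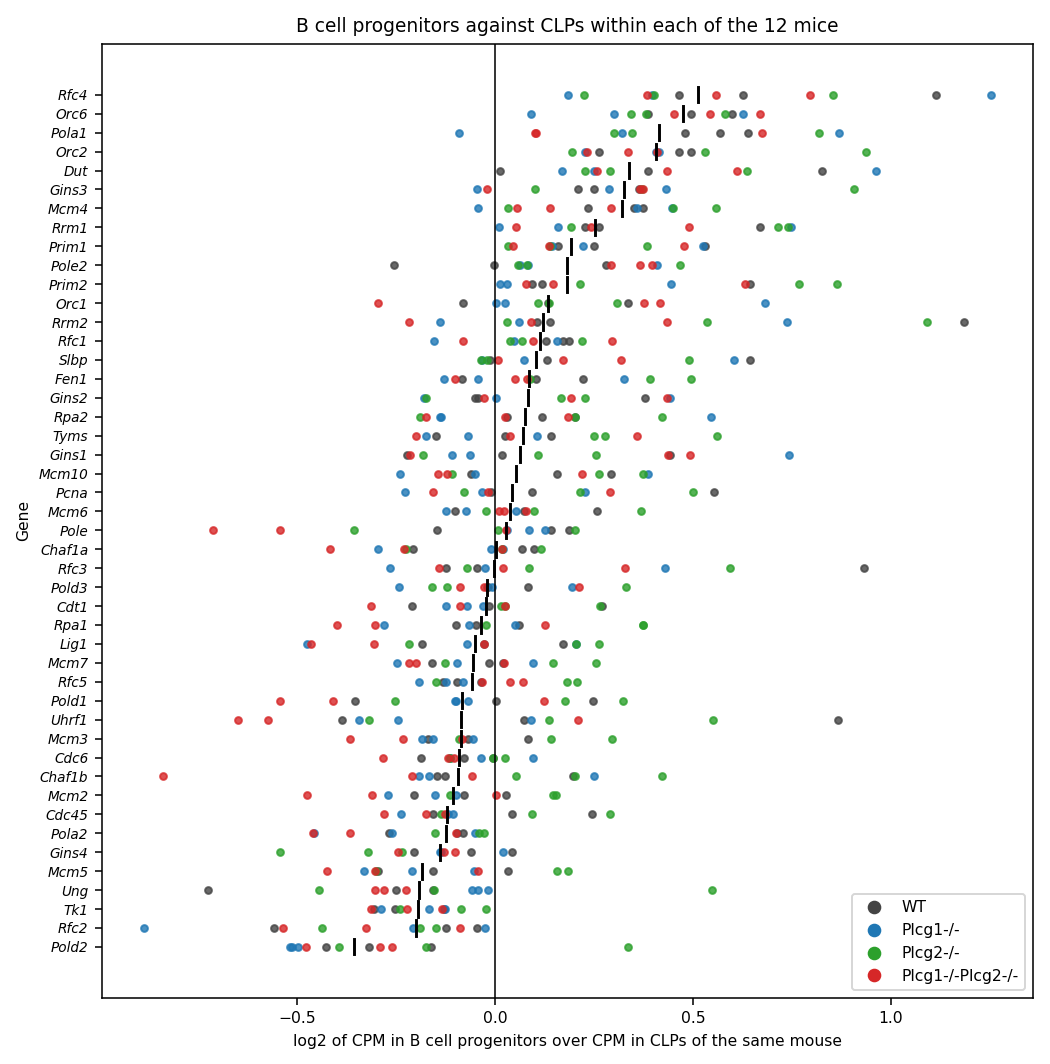
Log2 ratio of CPM in B cell progenitors to CPM in CLPs of the same mouse (x axis) for each of the 46 genes (y axis, sorted by the median), with 1 point per mouse coloured by genotype and a black bar at the median of 12 mice. Rfc4, Orc6, Pola1 and Orc2 are at the top and Pold2 at the bottom; the points of Orc6 and Orc2 are all right of 0 and those of Rfc2 and Tk1 all left of it.

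The population difference of Plcg1-/-Plcg2-/- mice did not pass a test against that of WT mice for any member (0 called, with 0% of all tested genes, and 0 members at an unadjusted p of at most 0.05 in either direction, where 0.691% of all tested genes were lower and 0.674% higher). Pole had the largest difference below 0, at -0.44 on the log2 scale (SE 0.22, adjusted p = 1.00 from edgeR).

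Of 43 further replication genes on a separate list, 0 were called in these genotype comparisons. The median log2 fold change of this list in Plcg1-/-Plcg2-/- against WT was -0.25 in CLPs, with 9 lower and 0 higher at an unadjusted p of at most 0.05, and -0.29 in B cell progenitors, with 16 lower and 0 higher. Of all tested genes, 3.84% were lower and 3.68% higher in CLPs, and 6.56% and 5.71% in B cell progenitors. Calls between populations covered 3.5% of all tested genes in WT, 3.78% in Plcg1-/-, 3.21% in Plcg2-/- and 3.24% in Plcg1-/-Plcg2-/- mice. Between populations Orc4, an origin recognition subunit, was called higher in B cell progenitors in each genotype, with mean levels of 78.7 to 84.5 against 49.6 to 55.4 CPM. Supt16, a histone chaperone subunit, was called higher in WT, Plcg1-/- and Plcg2-/- mice, Pole4 was called higher in Plcg2-/- mice, Dctpp1 lower in Plcg2-/- mice and Pold4 lower in Plcg1-/-Plcg2-/- mice. Among 30 genes of E2F, RB and G1/S control 0 were called in the genotype comparisons, with medians of -0.13 in CLPs and -0.26 in B cell progenitors for Plcg1-/-Plcg2-/- against WT. Ccne2, the cyclin E2 gene, was called higher in B cell progenitors in each genotype, with log2 differences between 1.88 and 2.14. Rb1 was called higher in WT and Ccna2 in Plcg2-/- mice. Among 30 mitosis genes 0 were called in the genotype comparisons, with medians of -0.29 in CLPs and -0.52 in B cell progenitors for Plcg1-/-Plcg2-/- against WT. Their median difference between populations was 0.49 in WT, 0.35 in Plcg1-/-, 0.60 in Plcg2-/- and 0.24 in Plcg1-/-Plcg2-/- mice, and Hmmr and Kif11 were called higher in Plcg2-/- mice.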

How the data were processed

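The authors sorted cells, made poly(A) libraries, and aligned reads with STAR 2.5.0a to mm10 in BaseSpace, per the labels and methods; the counting program and its use of strand are not given in the sources used here. The deposited files hold raw counts of reads per gene, 1 table per library, without normalization. The 2 lines that name no gene were left out. Counts were tested with edgeR 4.0.16 (R 4.3.3; TMM, filterByExpr, quasi-likelihood test, Benjamini-Hochberg over all genes tested), in a fit per population for genotypes and in a fit of 24 libraries for populations. SE were derived from the F statistic, and levels are CPM from the fit of 24 libraries. A call needed an adjusted p no higher than 0.05 and a log2 fold change of 0.5 or more in either direction. DESeq2 1.42.0 and other alternatives were run. The tests were checked on simulated counts. Depth limits low counts, and 3 reads correspond to between 0.0908 and 2.00 CPM, counting error only. Mouse numbers in the labels pair the populations of a mouse: deviations of its libraries correlated with a mean r of 0.114 over 12 mice, and over 0.1 in 7. Replicate numbers were taken to pair genotypes, from the data alone, where every such correlation was over 0.1: among the knockout genotypes in CLPs (9 of 9 pairs) and between Plcg2-/- and Plcg1-/-Plcg2-/- B cell progenitors (3 of 3), and in no other pair of genotypes. Members and lists were chosen with earlier results of these data known. Genes given in every library were the largest and smallest differences in Plcg1-/-Plcg2-/- against WT, the largest between WT populations, and fixed members of each role. Promoters came from RefSeq on GRCm38.p6. Plcg1 exon deletion was not analysed here. Some genes of the lists are not reported here by name.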

Additional observations from a re-analysis of the deposited data

Results flagged for a closer look

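Among 92 pairs of a member and a population, 6 members of the set stood out in CLPs because the loss of 1 PLCγ gene went with lower levels in every library when the other gene was intact and with higher levels in every library when it was lost. All Plcg2-/- libraries lay below WT while all Plcg1-/-Plcg2-/- libraries lay above Plcg1-/- for Orc2, Prim2 and Chaf1b, and all Plcg1-/- libraries lay below WT while all Plcg1-/-Plcg2-/- libraries lay above Plcg2-/- for Mcm5, Rpa1, Tyms and Chaf1b. This pattern was shown by 0.441% of all 15209 genes tested in CLPs, and 0.296% showed its mirror image. No member showed either in B cell progenitors, where 0.493% and 1.33% of 15001 tested genes did. The test of the difference itself, an interaction contrast with edgeR's quasi-likelihood test added after the data were seen, gave 0.42 for Orc2 (SE 0.18), 0.91 for Prim2 (SE 0.23), 0.79 for Chaf1b (SE 0.21), 0.39 for Mcm5 (SE 0.16), 0.60 for Rpa1 (SE 0.19) and 0.86 for Tyms (SE 0.23) on the log2 scale. The adjusted p was 0.862 for each of these 6, and none passed. The comparisons of Plcg1-/- with WT and of Plcg1-/-Plcg2-/- with Plcg2-/- also differed in Xist. With 3 libraries per group no search for single outlying libraries was made.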

How the results depend on the processing

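Precision is limited by 3 libraries per group and by depth in the smallest libraries, and reads on no gene cannot be told apart from the population. The alternatives were RLE size factors, thinned counts, no low-count filter, DESeq2, fits of only the groups compared, blocks and libraries left out. The cause of the differences was not tested. Replicate numbers did not pair WT with the other genotypes (correlation of deviations over 0.1 in 3 of 9 same-number pairs in CLPs and 2 of 9 in B cell progenitors). With the replicate number as a block, members called in Plcg1-/-Plcg2-/- against WT in B cell progenitors were 5 (Cdc45, Pold1, Rfc4, Rrm2 and Uhrf1), where 3.67% of all tested genes were called. Against Plcg1-/- there was 1 (Tyms), where 0.667% of all tested genes were called. Members lower than WT at an unadjusted p in B cell progenitors were then 27 for Plcg1-/- and 3 for Plcg2-/-, with no share of all tested genes given. With the mouse as a block, 0 were called between WT populations, where 3.6% of all tested genes were.

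Members lower at an unadjusted p against WT in CLPs were 10 for Plcg1-/-Plcg2-/- and 5 for Plcg1-/- without a filter, 23 for Plcg1-/- without the number 1 libraries, and 4 for Plcg1-/- and 10 for Plcg2-/- in fits of only the groups compared. In B cell progenitors they were 8 for Plcg1-/- with thinned counts, 20 for Plcg1-/- and 1 for Plcg2-/- with DESeq2, 21 for Plcg1-/- in a fit of only the groups compared, and 12 for Plcg1-/-Plcg2-/- without the number 1 libraries. DESeq2 called 1 member in Plcg1-/-Plcg2-/- against WT and 2 against Plcg1-/- in B cell progenitors, and 1 was called in the latter without the number 1 libraries. The shares of all tested genes under these settings are not given here, so these counts describe the members only.

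Between populations, members called in WT were 2 by the adjusted p alone and with DESeq2, and 0 with RLE size factors, no filter, thinned counts, without the number 1 libraries and in a fit of only the groups compared. In Plcg1-/- they were 2 with thinned counts and 0 without the number 1 libraries or in a fit of only the groups compared. In Plcg2-/- they were 2 by the adjusted p alone, 3 with DESeq2 and 0 without a filter or in a fit of only the groups compared. In Plcg1-/-Plcg2-/- they were 0 with thinned counts and without the number 1 libraries, and for the mean of 4 genotypes 15 by the adjusted p alone. By the adjusted p alone, 3.47% of all tested genes were higher and 0.389% lower in WT. These shares were 2.96% and 0.488% in Plcg2-/- mice, and 16.4% and 13.7% for the mean of 4 genotypes. For the other settings no share of all tested genes is given, so those counts describe the members only. Without a filter the median was -0.16 in Plcg1-/- and 0.024 in Plcg2-/-.

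Leaving out 1 library at a time, members lower at an unadjusted p against WT in CLPs ranged from 4 (without WT replicate 2) to 30 (without WT replicate 1) for Plcg1-/-Plcg2-/-, from 1 to 25 for Plcg1-/- and from 2 to 25 for Plcg2-/- (the same libraries). In B cell progenitors they ranged from 8 (without Plcg1-/-Plcg2-/- replicate 3) to 31 (without replicate 2), from 5 (without WT replicate 2) to 21 (without WT replicate 3) for Plcg1-/-, and from 0 to 4 (without Plcg2-/- replicate 2) for Plcg2-/-. Members called between populations ranged from 0 to 2 in WT, from 0 to 1 in Plcg1-/- and from 0 to 2 in Plcg1-/-Plcg2-/-, and were 0 in Plcg2-/- each time. Shares of all tested genes in the fits with a library left out are not given, so these counts describe the members only. Medians against WT in CLPs ranged from -0.37 to -0.18 for Plcg1-/-Plcg2-/-, from -0.34 to -0.17 for Plcg1-/- and from -0.37 to -0.18 for Plcg2-/- (without WT replicates 1 and 2). The same medians in B cell progenitors ranged from -0.47 to -0.29, from -0.36 to -0.27 and from -0.23 to -0.11. The population medians ranged from -0.0027 to 0.13 in WT, from -0.016 to 0.026 for the mean of 4 genotypes (-0.017 without a filter), from -0.10 to 0.072 in Plcg1-/-Plcg2-/-, from -0.16 to -0.094 in Plcg1-/- and from -0.0014 to 0.081 in Plcg2-/-. Every fit with a library left out repeated the low-count filter and the scaling. The population ranges for Plcg1-/-, Plcg2-/- and the mean of 4 genotypes do not hold the values from all libraries.

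Single genes near 0 turned sign. In Plcg1-/-Plcg2-/- against WT, Tk1 in CLPs was -0.0034 with the block, -0.055 without the number 1 libraries and -0.00184 in a fit of only the groups compared, and Tk1 in B cell progenitors was -0.10 with thinned counts and -0.00995 without the number 1 libraries, where Orc1 was 0.048. For the mean population difference with thinned counts Cdt1 was 0.017 and Chaf1b was 0.14. With 1 library left out, the log2 fold changes against WT ran from -0.11 to 0.17 for Prim2, from -0.052 to 0.058 for Tk1 and from -0.067 to 0.20 for Chaf1b in CLPs, and from -0.10 to 0.27 for Prim2, from -0.016 to 0.066 for Tk1 and from -0.25 to 0.0092 for Orc1 in B cell progenitors.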

Other observations

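Outside the DNA replication genes, the mitosis list held more calls between populations. For the mean of 4 genotypes 10 of its 30 genes were called higher in B cell progenitors (Nuf2, Cenpf, Hmmr, Ccnb1, Ndc80, Kif20a, Kif11, Nusap1, Bub1 and Cenpe) and 0 lower, with a median log2 difference of 0.39, where 8.41% of 17212 tested genes were called higher and 5.98% lower. The 46 replication genes had 1 call and a median of 0.06. With 1 library left out at a time, and the filter and scaling repeated, that median ran from -0.016 to 0.026, a range without the value of 0.06. No such range was made for the mitosis list. Its summed level was 4892, 10321 and 8371 CPM in WT CLPs and 10522, 11018 and 11423 CPM in WT B cell progenitors. The difference between these medians was not tested. Ccne2 went from a mean of 30.1 CPM in WT CLPs to 131 CPM in WT B cell progenitors.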
